A study of Mus musculus with 4 samples.

Results

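Expression of genes for glycolysis and of genes induced by low oxygen was followed in mouse embryonic fibroblasts, primary connective-tissue cells taken from embryos, in which mTert had been overexpressed. The set held 35 genes, chosen by function as 16 glycolytic enzymes and 19 other hypoxia-inducible genes. Each gene was read from every probe set that the platform annotation gives a single symbol. By this rule 32 of the 35 genes had 66 probe sets, and 29 genes were tested, out of 7387 genes tested on the array. The control cells carried the empty retrovirus pBabePuro and the mTert cells carried pBabePuro with the catalytic subunit of mouse telomerase, the enzyme that extends chromosome ends. Each group had 2 samples, numbered 1 and 2 in the titles, and 1 Affymetrix MOE430A array per sample. The labels give no strain, passage, oxygen level or selection, and do not say whether the samples came from separate cultures, so p-values measure only the spread between these arrays.

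Glycolysis breaks glucose down to pyruvate in the cytosol, and lactate dehydrogenase turns the pyruvate into lactate when mitochondria do not take it up. Many of its enzymes are targets of hypoxia-inducible factor (HIF), a pair of proteins made of an oxygen-regulated alpha subunit, such as the product of Hif1a, and a stable partner, Arnt. With oxygen present, prolyl hydroxylases encoded by the Egln genes mark the alpha subunit for destruction. When oxygen is low the alpha subunit persists, enters the nucleus and binds hypoxia response elements, whose core is ACGTG or GCGTG. Its targets bring in glucose, export lactate, keep pyruvate out of the mitochondria, and start blood vessel growth and collagen hydroxylation. HIF protein is set mainly by its breakdown, which mRNA arrays do not measure.

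The promoters of several members hold that core, and stretches upstream of the start site are shown for enzymes and targets whose values are described further on. Sequences are RefSeq's on GRCm38.p6, written 5′ to 3′ on the strand of the gene, with the cores in capitals. A core is ACGTG or the variant spelled GCGTG. On the other strand the former reads CACGT while the latter reads CACGC, and capitals mark both. Where cores of both strands overlap the capitals spell CACGTG.
Ldha, chr7:46845641-46845682: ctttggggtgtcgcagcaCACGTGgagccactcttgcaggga
Ldha, chr7:46845738-46845792: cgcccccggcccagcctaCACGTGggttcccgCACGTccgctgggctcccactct
Pgk1, chrX:106186932-106186991: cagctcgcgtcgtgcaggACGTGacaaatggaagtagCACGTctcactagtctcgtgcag
Pfkl, chr10:78009884-78009924: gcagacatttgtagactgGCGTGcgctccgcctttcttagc
Slc2a1, chr4:119108666-119108731: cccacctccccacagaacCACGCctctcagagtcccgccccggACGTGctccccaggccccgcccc
Adm, chr7:110627549-110627625: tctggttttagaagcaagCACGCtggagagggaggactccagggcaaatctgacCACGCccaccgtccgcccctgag
Ddit4, chr10:59951935-59951975: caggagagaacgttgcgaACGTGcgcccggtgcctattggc
Ddit4, chr10:59951863-59951903: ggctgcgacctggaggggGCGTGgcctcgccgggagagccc
Ldha holds the 6-letter CACGTG in both of the stretches shown, and Pgk1 holds ACGTG on one strand and, further along, on the other. Another Ldha stretch, not shown, lies upstream of a different start site and holds CACGC but not CACGTG.

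Over windows of 300 bases, 250 before and 50 after each start site, 38 of the members' 46 windows held ACGTG or GCGTG on either strand (82.6%), against 14380 of all 32851 windows (43.8%). The members' windows were also richer in G and C, at a median of 64.0% against 52.7%, and the part of base composition in the excess of cores was not tested. ACGTG, with or without GCGTG, was in 58.7% of the members' windows and 19.6% of all. GCGTG, with or without ACGTG, was in 60.9% and 32.4%, and CACGTG, which contains ACGTG on both strands, in 10.9% and 7.2%. Of the enzymes' windows 77.8% held a core, and of the other members' windows 89.5%. Among the 33 members with a window, 31 held a core in at least 1 of their windows, and the windows of Gpi1 and Tpi1 held none of these letters. A match of letters is a description and not a measured binding site.

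The Tert probe set checked the labels. Its signal was 128.0 and 84.7 on control 1 and control 2, both called absent, and 1164.5 and 845.4 on mTert 1 and mTert 2, both called present. The mTert arrays were at least 9.53-fold higher, a log2 difference of 3.25 ± 0.26 (SE, 2 arrays per group) with a limma adjusted p of 0.188, which missed the threshold of 0.05. The arrays called 51.6% to 54.4% of probe sets present. Control 1 received 5 µg of labelled cRNA and the other arrays 15 µg. All 12 fibroblast markers were present on every array, while Epcam, Krt8, Krt18 and Krt19 of epithelium, Cdh5 and Pecam1 of endothelium and Myod1 and Myog of muscle were absent on all 4. Other markers of these lists were called present on some arrays: Tek of endothelium on all 4 at signals of 74.4 to 197.8, Kdr on 2, Krt14 and Cdh1 of epithelium on 2 and on 1, and Des and Acta1 of muscle on 3 and on 1. The 10 macrophage markers had a summed signal of 2864 and 3125 on the arrays numbered 1 and 10544 and 11009 on those numbered 2.

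In the comparison of mTert with control cells, no glycolytic or hypoxia-inducible gene passed the test across all probe sets. Of the 54 member probe sets tested, 0 had a limma adjusted p under 0.05, beside 0 of 12396 on the array (0%). At an unadjusted p under 0.05, 1 member probe set was higher in mTert cells, that of Pkm, and 0 were lower, where 105 probe sets were higher (0.847%) and 156 lower (1.26%) on the array. Every member's adjusted p rounded to 1.00, so differences below are given as values. A p of this size does not show equal expression: the 95% intervals of the log2 differences lay within 0.5 either way for 10 of 13 enzymes and 9 of 16 other genes. They reached from -0.58 to 0.53 over the enzymes and from -1.03 to 0.89 over the others.

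**Figure D1:**
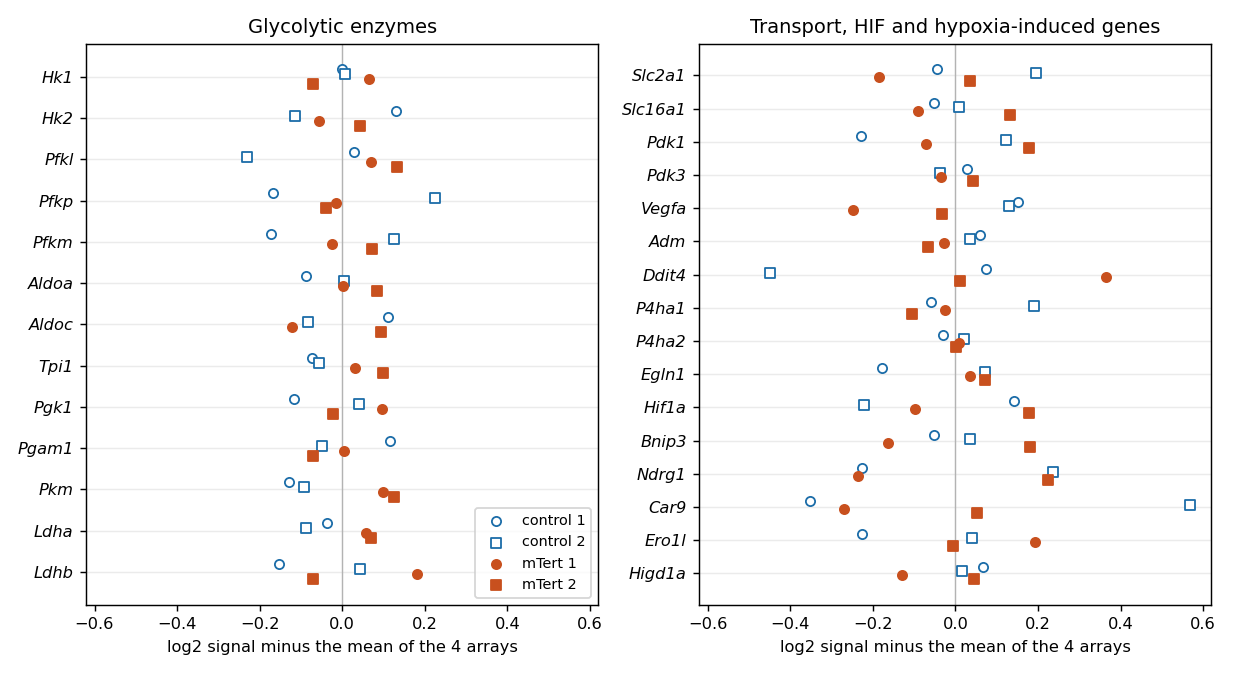
Log2 signal of each tested member gene on each array, as the difference from that gene's mean over the 4 arrays; open symbols are control and filled symbols mTert arrays, circles are number 1 and squares number 2. Both mTert arrays lie above both controls for Pfkl, Tpi1, Pkm and Ldha and below both for Vegfa and Adm, and the squares lie above the circles for Ndrg1 and Car9.

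The 13 tested enzymes had a median log2 difference of 0.07, with values from -0.07 to 0.22, beside a median of 0.01 over all tested probe sets. Of these enzymes 8 were on the higher side and 5 on the lower. For 4 enzymes, Pfkl, Tpi1, Pkm and Ldha, both mTert arrays lay above both controls, and no enzyme had both below. On the array as a whole the groups stood apart in this way for 13.4% of probe sets, beside 4 of the 13 enzymes. By the brightest probe set 0 of the 16 other genes did. Over the member probe sets, with enzymes and other genes pooled, 8 of 54 did (14.8%), near the background. Those 8 were not spread evenly: they were of the enzymes Pfkl, Aldoa, Tpi1, Pgk1, Pkm and Ldha, and of Ero1l alone among the other genes. The share of the enzymes taken apart was not tested. The enzymes' median was 0.04 without control 1 and 0.13 without control 2. It was 0.04 when a gene's probe sets were averaged in place of taking the brightest.

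Among the hexokinases and the phosphofructokinase subunits, whose early steps spend ATP, Pfkl alone had groups that stood apart. Hk1, the hexokinase that phosphorylates glucose in most tissues, read 1293.1 and 1300.0 in the controls and 1352.8 and 1231.1 in mTert cells. Hk2, the inducible hexokinase, read 484.8 and 409.3 against 426.5 and 456.6. For both genes the mTert arrays fell on either side of, or between, the controls, with log2 differences of -0.01 each. Pfkl, the liver-type subunit of phosphofructokinase, the committed step of the pathway, read 1141.3 and 953.2 in the controls and 1172.5 and 1225.6 in mTert cells. Its log2 difference was 0.20 ± 0.13 (SE, 2 arrays per group, limma unadjusted p 0.185), and it was 0.07 without control 2. The second Pfkl probe set differed by 0.06. The platelet-type subunit Pfkp read 277.1 and 363.6 against 308.2 and 303.0, and the muscle-type Pfkm 880.8 and 1082.6 against 974.6 and 1042.0. In both subunits the mTert arrays lay between the controls.

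Aldolase splits the 6-carbon sugar and triose phosphate isomerase interconverts the products. Aldoa read 5686.6 and 6060.0 in the controls and 6056.3 and 6405.6 in mTert cells, a log2 difference of 0.09 ± 0.08 (SE, limma unadjusted p 0.328). Its 4 tested probe sets ranged from -0.05 to 0.09, with 3 higher and 1 lower. The groups overlapped by the brightest, while another Aldoa probe set, at 2257.1 and 2016.9 against 2288.2 and 2264.5, stood apart. Aldoc, the brain-type aldolase, read 143.5 and 125.4 against 122.1 and 141.8 and was called present only on control 1 and mTert 2. Tpi1, the isomerase, read 2948.0 and 2981.0 against 3167.3 and 3318.4, with both mTert arrays above both controls. Its log2 difference was 0.13 ± 0.09 (SE, limma unadjusted p 0.192), and its 3 probe sets gave 0.11 to 0.14. The probe sets used for Aldoa, Tpi1 and Pgk1 are of the type whose name ends in x_at, which can also bind similar transcripts, so these values may include copies of the genes.

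In the later, ATP-yielding steps Pkm had the smallest p of the members. Gapdh, the dehydrogenase that follows, was read from its 3 control probe sets, which were left out of the test. They read 7214.8 at the 3′ end, 8429.7 in the middle and 9332.6 at the 5′ end on control 1, and their log2 differences between the groups ran from 0.02 to 0.07. Pgk1, phosphoglycerate kinase, read 5160.0 and 5754.5 in the controls and 5981.5 and 5504.9 in mTert cells, a log2 difference of 0.07 ± 0.09 (SE, limma unadjusted p 0.453). Its 3 probe sets gave 0.07 to 0.23. Pgam1, phosphoglycerate mutase, read 2304.5 and 2058.6 against 2135.2 and 2028.0. By the brightest probe set neither gene's groups stood apart, while another Pgk1 probe set, at 434.6 and 433.7 against 493.3 and 523.4, did.

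Pkm (probe set 1417308_at) encodes pyruvate kinase, which makes pyruvate and ATP in the last step. It read 2708.3 and 2774.2 on the control arrays and 3168.8 and 3228.1 on the mTert arrays, so the gap between the groups was wider than the distance within either. The log2 difference was 0.22 ± 0.09 (SE, 95% interval 0.01 to 0.44), 1.17-fold higher in mTert cells, with a limma unadjusted p of 0.0433 and an adjusted p of 1.00. Leaving out any 1 array gave 0.21 to 0.24. The array does not separate the M1 and M2 splice forms here, since Pkm had 1 probe set.

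Lactate dehydrogenase was read from its A and B subunits. Ldha (probe set 1419737_a_at), the form that favours making lactate and whose promoter holds CACGTG at both stretches shown, read 4288.2 and 4140.4 in the controls and 4577.6 and 4615.2 in mTert cells. Both mTert arrays lay above both controls, and the log2 difference was 0.13 ± 0.08 (SE, 95% interval -0.07 to 0.32, limma unadjusted p 0.167). Ldhb read 772.7 and 886.1 against 975.4 and 818.9, with overlapping groups, and its 4 probe sets gave -0.10 to 0.11, 2 on each side. Gpi1, the glucose phosphate isomerase, and Eno1, the main enolase, had no probe set under the annotation used and were not analysed here.

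**Figure D2:**
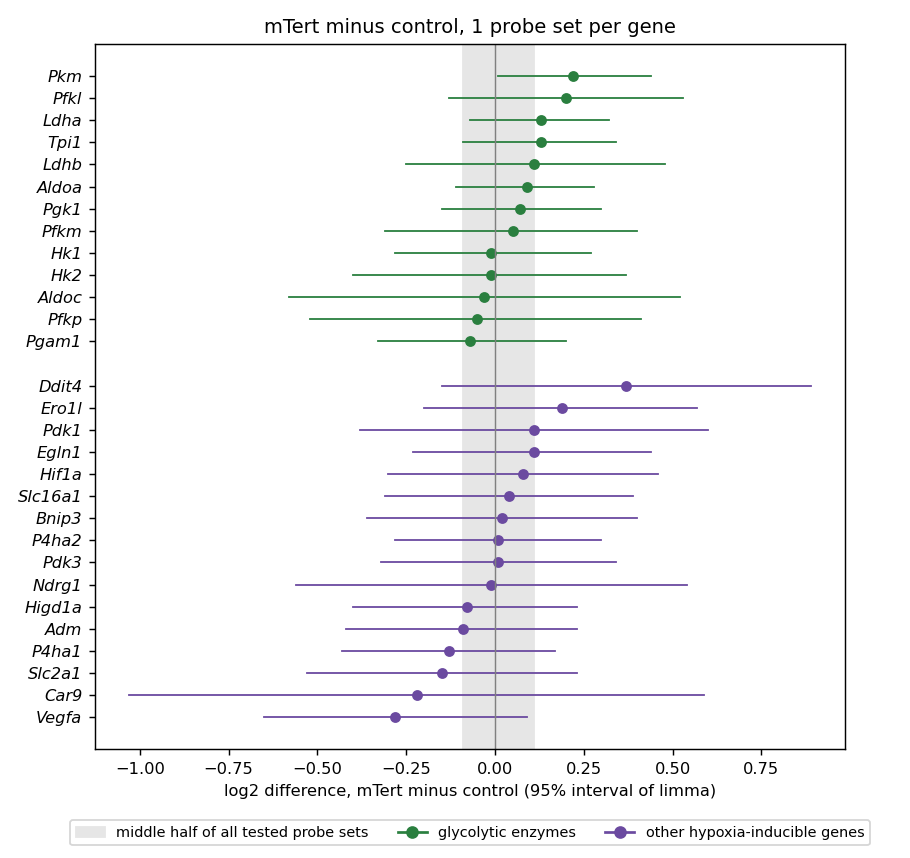
Log2 difference of mTert minus control for the 29 tested genes, each by its brightest probe set, with the 95% interval of limma; the grey band spans the quartiles of all tested probe sets, -0.09 to 0.11. Pkm has the only interval that does not cross 0, from 0.01 to 0.44, and Car9 and Ddit4 have wide ones.

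The 16 other hypoxia-inducible genes tested had a median log2 difference of 0.01, with values from -0.28 to 0.37, 9 on the higher and 7 on the lower side. In 2 of them, Vegfa and Adm, both mTert arrays lay below both controls, and in none did both lie above by the brightest probe set. Over the array 12.1% of probe sets had both mTert arrays below, beside 2 of these 16 genes and 0 of the 13 enzymes. Among member probe sets 5 of 54 did (9.26%), a share that pools enzymes and other genes. All 5 were of the other genes: Vegfa, Adm, P4ha1, Egln1 and Higd1a. The median was -0.07 without mTert 2.

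Among the genes that move glucose, lactate and pyruvate, no tested gene had groups that stood apart by its brightest probe set. Slc2a1, the glucose transporter GLUT1, read 648.3 and 764.5 in the controls and 587.8 and 684.7 in mTert cells. Its log2 difference was -0.15 ± 0.16 (SE, limma unadjusted p 0.373), and its 3 probe sets gave -0.16 to -0.07. Slc16a1, the lactate transporter MCT1, read 595.5 and 621.4 against 580.1 and 676.6. Slc16a3, the lactate exporter MCT4, was called absent on all 4 arrays and was not tested; its signals were 125.5 and 172.2 in the controls and 260.2 and 190.4 in mTert cells. Pdk1 and Pdk3 encode kinases that switch off pyruvate dehydrogenase and so keep pyruvate from the mitochondria. Pdk1 read 246.9 and 314.8 against 275.4 and 327.3, and Pdk3 565.7 and 541.2 against 542.0 and 571.6. For Slc2a1, Slc16a1 and Pdk1 the pattern followed the sample number, and both arrays numbered 2 were above both numbered 1.

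Hif1a, the oxygen-regulated subunit, read 3281.8 and 2550.8 in the controls and 2776.4 and 3362.3 in mTert cells, and its 3 tested probe sets gave log2 differences of -0.02 to 0.10. The distance between the controls exceeded that between the groups. Egln1, the prolyl hydroxylase PHD2 that limits HIF when oxygen is present, read 806.4 and 957.8 against 934.3 and 959.1, a log2 difference of 0.11 ± 0.14 (SE, limma unadjusted p 0.463). Its second probe set went the other way, at -0.26, with both mTert arrays below both controls. Egln3, the hydroxylase PHD3 and itself a strong HIF target, had 2 probe sets called absent on every array, at signals of 19.7 to 158.7, and was not tested.

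Of the secreted factors, Vegfa (probe set 1420909_at), the vascular growth factor, read 499.4 and 492.7 in the controls and 378.9 and 439.7 in mTert cells, with calls of present in the controls and marginal in mTert cells, so that it passed the filter through the controls. The log2 difference was -0.28 ± 0.15 (SE, 95% interval -0.65 to 0.09, limma unadjusted p 0.114), and ranged from -0.39 without mTert 2 to -0.17 without mTert 1. A second Vegfa probe set, at 436.4 and 358.6 against 484.1 and 301.5, overlapped between the groups and differed by -0.05. Adm, which encodes the vasodilator peptide adrenomedullin, read 581.1 and 571.7 against 547.6 and 533.1, a log2 difference of -0.09 ± 0.13 (SE, limma unadjusted p 0.508). Its groups stood apart by a small gap.

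Ddit4 (probe set 1428306_at), also called Redd1, encodes an inhibitor of the growth kinase mTORC1 and had the widest difference among the tested genes by the brightest probe set. It read 1045.7 and 727.5 in the controls and 1277.4 and 1000.2 in mTert cells, so each mTert array was above the control of the same number, while mTert 2 lay below control 1. The log2 difference was 0.37 ± 0.21 (SE, 95% interval -0.15 to 0.89, limma unadjusted p 0.129), and ranged from 0.11 without control 2 to 0.64 without control 1. Ero1l, the oxidase that drives disulfide formation in the endoplasmic reticulum, is listed on the platform as Ero1a. It read 585.3 and 703.9 against 783.4 and 681.9, a log2 difference of 0.19 ± 0.16 (SE, limma unadjusted p 0.278). Another of its 3 probe sets read 507.9 and 394.0 against 639.7 and 556.1 and stood apart, at 0.41 with an unadjusted p of 0.0598, and the remaining one gave 0.05.

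P4ha1 and P4ha2 encode the catalytic subunits of collagen prolyl hydroxylase, which fibroblasts use to make stable collagen. P4ha1 read 1835.6 and 2183.7 in the controls and 1881.2 and 1779.4 in mTert cells, a log2 difference of -0.13 ± 0.12 (SE, limma unadjusted p 0.329). A second P4ha1 probe set differed by -0.08, with both mTert arrays below both controls. P4ha2 read 816.5 and 846.9 against 839.1 and 834.8, the narrowest spread over the arrays among the genes of the plot by array. Bnip3, a mitophagy receptor, read 832.7 and 885.1 against 770.8 and 979.4. Higd1a, a small mitochondrial protein, read 911.1 and 879.8 against 795.7 and 896.9. Its second tested probe set gave -0.32, with both mTert arrays below both controls. Bnip3l had only probe sets that carry several symbols and was not analysed here. Car9, the surface carbonic anhydrase that is a classic sign of HIF activity, read 155.7 and 294.8 against 164.9 and 206.2 and was called absent on mTert 1. Its log2 difference was -0.22 ± 0.33 (SE, limma unadjusted p 0.538), and its value on control 2 lay far above the rest.

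Among the members, the difference between arrays numbered 2 and 1 that passed the test was in Ndrg1, a gene induced by hypoxia and by cell stress. By its brightest probe set, 1420760_s_at, it read 547.1 and 754.0 on control 1 and 2 and 543.3 and 748.0 on mTert 1 and 2. A second probe set read 343.1 and 498.2 in the controls and 260.6 and 530.6 in mTert cells, another 260.0 and 382.6 against 196.8 and 452.0, and the last tested one 136.2 and 241.1 against 123.7 and 250.9. On these 4, the arrays numbered 2 lay above those numbered 1 in both groups, while mTert and control overlapped with log2 differences of -0.15 to -0.01. The fifth Ndrg1 probe set was called absent on every array and not tested; it read 107.3 and 272.8 in the controls and 155.2 and 115.5 in mTert cells, where array 2 lay below array 1.

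**Figure D3:**
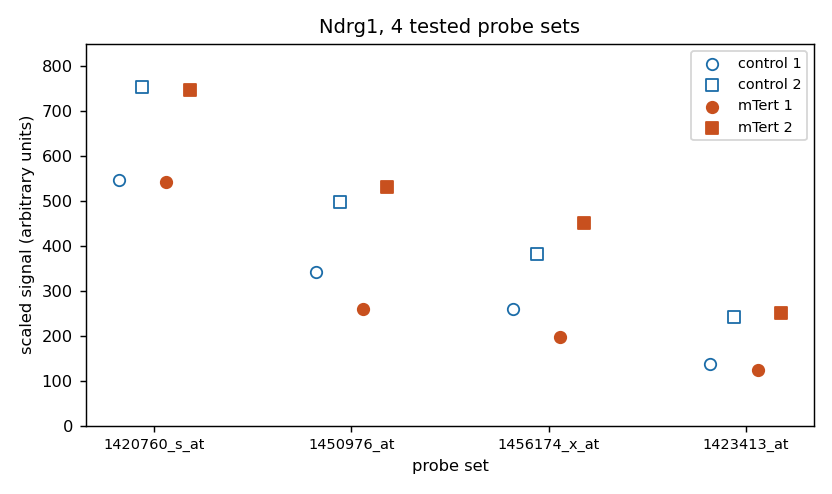
Scaled signal of the 4 tested Ndrg1 probe sets on each array, in arbitrary units from 0; open symbols are control and filled symbols mTert arrays, circles are number 1 and squares number 2. In every probe set both squares lie above both circles, for example 754.0 and 748.0 over 547.1 and 543.3 in the brightest.

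The log2 difference of number 2 minus number 1, fitted with limma with a term for the group, was 0.78 ± 0.19, 0.92 ± 0.24 and 0.88 ± 0.21 (SE, 2 arrays per number) in 3 of these Ndrg1 probe sets. Their limma adjusted p-values were 0.0335, 0.0446 and 0.0305. The brightest differed by 0.46 ± 0.16 with an adjusted p of 0.196. These 3 were the member probe sets called, 3 of 54 (5.56%), where 347 of 12396 were called on the array (2.80%). The calls ended under quantile normalisation (adjusted p 0.0696 to 0.0831) and without the filter on presence calls (0.114 to 0.234). They also ended without the intensity trend (0.111 to 0.222) and without a term for the group (0.0647 to 0.0822). They held among probe sets present on all 4 arrays (0.0358 to 0.0438).

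Macrophage markers moved with the same number. All 8 tested markers of the 10 were called higher on the arrays numbered 2, Lyz2 by a log2 difference of 2.22 and Csf1r by 1.72. Over the array 2.80% of probe sets were called by number in either direction. Of the 12 fibroblast markers 3 were also called by number, in both directions. Thy1 differed by -0.68 and Dcn by -0.51 (limma adjusted p 0.00136 and 0.0150), and S100a4 by 0.36 (0.0446). On each array numbered 1, 6 macrophage markers were called present, and 8 on each numbered 2, with Fcgr1 absent on all. Cd14 and Tyrobp were called present only on the arrays numbered 2, so they passed the filter through the arrays where they were higher. In these bulk samples fewer cells of a type and less RNA per cell cannot be told apart. The part of either cell type in the values of Ndrg1 was not tested. The labels do not say what the number stands for.

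Of the 29 genes, 9 had both arrays numbered 2 above both numbered 1. They were Ndrg1, Car9, Pdk1, Slc2a1, Bnip3, Slc16a1, Egln1, Pfkm and Aldoa, 7 of them outside the enzymes, and apart from Ndrg1 none had a probe set with an adjusted p under 0.05. On the array 20.3% of probe sets stood apart in this direction, and of the member probe sets 16 of 54 did (29.6%). Car9 had a log2 difference of 0.62 ± 0.24 (SE) by number with a limma adjusted p of 0.287. In the other direction the background was 19.4%, with 8 of 54 member probe sets (14.8%) and 2 genes, Pgam1 and Ddit4. Ddit4 fell by 0.44 on the log2 scale from number 1 to number 2, with a limma adjusted p of 0.157, opposite to Ndrg1.

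**Figure D4:**
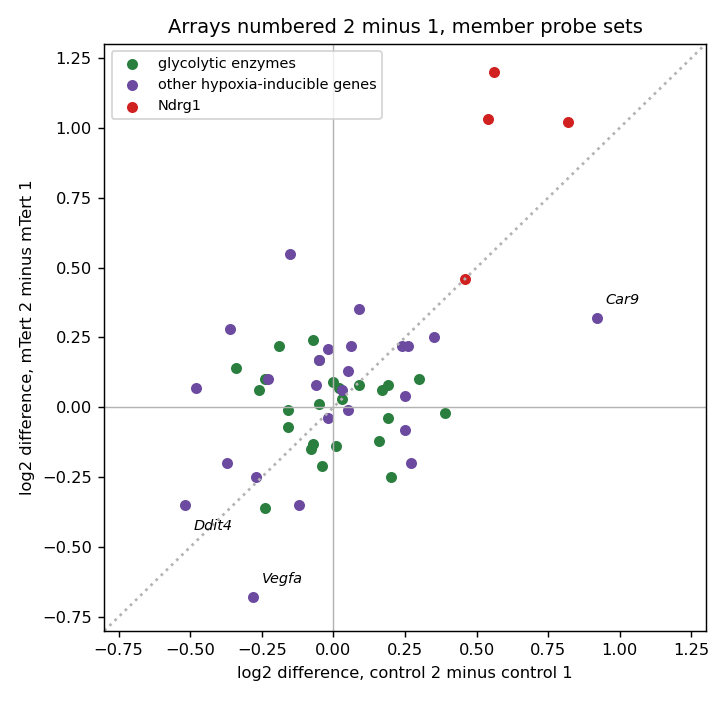
Log2 difference of array 2 minus array 1 in the control group (horizontal) and in the mTert group (vertical) for the 54 tested member probe sets; the dotted line marks equal differences. The 4 Ndrg1 probe sets lie at the upper right, at 0.46 or more in both groups, and Ddit4 at the lower left, at -0.52 and -0.35.

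Other genes of these pathways also held no probe set with an adjusted p under 0.05 between mTert and control cells. Their lists were chosen by function, with earlier results of these data known. Of 32 other genes of glycolysis and glucose use, 16 were tested, and their median log2 difference was 0.04, with 8 on each side. Pgam5, a mitochondrial phosphatase related to Pgam1, read 730.9 and 628.7 in the controls and 995.0 and 745.5 in mTert cells. Eno2, the neuronal enolase, read 238.4 and 245.5 against 311.1 and 282.8. Both had mTert arrays above the controls, by 0.35 ± 0.18 and 0.29 ± 0.17 (SE) on the log2 scale. Pgam5 differed by 0.14 without mTert 1 and by 0.55 without mTert 2. Pfkfb2, which sets the level of the phosphofructokinase activator, lay below, at -0.30 ± 0.22, and Pgm1, phosphoglucomutase, overlapped at 0.19 ± 0.16. The probe sets of Bpgm disagreed. Its brightest gave -0.14, with both mTert arrays below both controls. Another read 118.3 and 101.2 against 187.9 and 178.3, a log2 difference of 0.74, and the remaining one gave 0.07.

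The pentose phosphate pathway, which draws glucose 6-phosphate off for NADPH and ribose, had 7 of 8 genes tested, with a median of 0.00. Pgls, its lactonase, read 1130.4 and 1347.1 in the controls and 1438.3 and 1557.4 in mTert cells, a log2 difference of 0.28 ± 0.13 (SE, limma unadjusted p 0.0785). Rpe, Tkt and Taldo1, enzymes of its non-oxidative branch, overlapped between the groups by their brightest probe sets at -0.16, -0.08 and 0.11. A second Rpe probe set read 461.2 and 495.8 against 426.1 and 408.8, and there both mTert arrays lay below both controls.

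Of 14 other genes of the HIF system 10 were tested, with a median of 0.00. Siah2, a ubiquitin ligase that removes prolyl hydroxylases, read 486.9 and 550.3 in the controls and 362.8 and 378.7 in mTert cells. Both mTert arrays were below both controls, and the log2 difference was -0.48 ± 0.15 (SE, limma unadjusted p 0.0181, adjusted p 1.00). The second Siah2 probe set gave -0.73 (limma unadjusted p 0.00516), also with both mTert arrays below both controls. Hif3a, a HIF subunit that can act as an inhibitor, was at 0.48 ± 0.32. It was called present on both mTert arrays and on neither control, so it passed the filter through the group where it was higher, and it ranged from 0.16 to 0.81 with an array left out. Egln2, the hydroxylase PHD1, was at -0.16 ± 0.14 and Cited2, which competes with HIF for its coactivator, at -0.18 ± 0.22. Cited2 followed the sample number, with 1893.3 and 1763.2 on the arrays numbered 1 and 2803.6 and 2344.2 on those numbered 2, a log2 difference of 0.49 with a limma adjusted p of 0.0249. Its other probe set gave 0.40 with a limma adjusted p of 0.237. By number 1 of the 10 genes was called, beside 2.80% of all tested probe sets. The alternatives that ended the Ndrg1 calls were not followed for Cited2.

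Of 38 other hypoxia-induced genes 25 were tested. Their median log2 difference was -0.12, with 20 on the lower side and 5 on the higher, beside 5969 lower and 6427 higher of all tested probe sets. The list was chosen with earlier results of these data known, so these counts are a description and were not tested. In 7 of them both mTert arrays lay below both controls and in 1 both lay above, where 12.1% and 13.4% of all tested probe sets did. Bhlhe40, a transcriptional repressor, read 2790.1 and 2709.6 in the controls and 1762.5 and 1892.0 in mTert cells, a log2 difference of -0.59 ± 0.10 (SE, limma unadjusted p 0.000886, adjusted p 1.00). Errfi1, an inhibitor of the EGF receptor, read 1571.3 and 1299.5 against 983.6 and 911.2, a difference of -0.59 ± 0.14. Dusp1, a phosphatase of MAP kinases, read 4628.6 and 5019.6 against 3773.4 and 3864.3, a difference of -0.34 ± 0.09. Hmox1, haem oxygenase, lay at 1168.6 and 1255.0 against 1042.0 and 1030.1. All 4 genes had both mTert arrays below both controls. Bhlhe40, Errfi1 and Dusp1 are also known to respond to serum and growth factors.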

How the data were processed

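RNA of 4 samples was measured on MOE430A arrays of 22690 probe sets. Per the file headers, the authors deposited 1 signal intensity per probe set on a linear scale, with a present, marginal or absent call and a detection p-value. Which program produced them was not given in the sources used here. Each array's deposited intensities were scaled to a common trimmed mean (2% left out at each end) and taken to log2, with 1 signal at 0 set to its array's lowest present signal. The 64 control probe sets and those present on fewer than 2 of 4 arrays were left out, which left 12396. Symbols came from the platform annotation: 20393 probe sets had 1, 691 several and 1606 none. Groups and numbers came from the titles.

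Groups, and numbers with a term for group, were compared with limma 3.58.1 (R 4.3.3; lmFit, eBayes with a trend), with Benjamini-Hochberg adjustment over all 12396 and a threshold of 0.05. For Tert the fold was taken against the higher of each control's own signal and its array's lowest present signal. The control's own signal was the higher on both arrays. The fit was tested on simulated data. The members and lists were chosen with earlier results of these data known. Every member with a probe set is named by its brightest tested probe set. SE and p are given for the 6 enzymes, 8 other members and, in part, 4 genes of each further list with the smallest p. Depth in reads does not apply to arrays: their number limits the precision. Alternatives covered normalization, filter, offset, variance trend, replicate block, probe set choice and left-out arrays.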

Additional observations from a re-analysis of the deposited data

How the results depend on the processing

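No member probe set had an adjusted p under 0.05 between mTert and control cells under any alternative run (quantile normalization, values as deposited, other filters, log2(signal + 16), no trend, the replicate block, and each array left out). Over the array the count was 0 throughout except with a replicate block, which gave 18 and called Tert (log2 3.25) and Bhlhe40 (-0.59, adjusted p 0.0464). The block was checked because the groups share the numbers 1 and 2. Differences between numbers correlated at 0.373 over probe sets between the groups, which with only 2 pairs is too few to treat them as pairs, and the labels do not say what the number stands for. The enzymes' median was 0.04 to 0.13 with an array left out and 0.04 with the mean of a gene's probe sets, and that of the other genes -0.07 to 0.07. Genes without overlap numbered 16 to 20 with an array left out, where a lone array makes overlap less likely by construction, in place of 6. Counted as probe sets and not as genes, 13 of the 54 member probe sets had no overlap. The count by sample number, 347, was 76 without the trend and 192 without a term for the group, alternatives chosen after seeing the data; the cause was not tested. Pdk3 was -0.01 under quantile normalization.

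Of 46 genes followed, 6 to 9 changed sign when an array was left out; the array left alone in its group was then assumed to vary like the other group. With an array left out the log2 differences ran from -0.07 to 0.06 for Hk1, -0.14 to 0.11 for Hk2, -0.25 to 0.14 for Pfkp, -0.10 to 0.19 for Pfkm, -0.14 to 0.08 for Aldoc, 0.00 to 0.15 for Pgk1, -0.15 to 0.02 for Pgam1 and -0.02 to 0.24 for Ldhb. They ran from -0.07 to 0.15 for Slc16a1, -0.07 to 0.28 for Pdk1, -0.03 to 0.05 for Pdk3, -0.02 to 0.04 for P4ha2, -0.02 to 0.23 for Egln1, -0.10 to 0.26 for Hif1a and -0.16 to 0.19 for Bnip3. They ran from -0.24 to 0.22 for Ndrg1, -0.68 to 0.24 for Car9, -0.17 to 0.00 for Higd1a, -0.35 to 0.04 for Rpe and -0.46 to 0.10 for Cited2. Among genes that kept their sign, Slc2a1 ran from -0.27 to -0.03, Ero1l from 0.05 to 0.32, P4ha1 from -0.26 to 0.00, Pgls from 0.15 to 0.40 and Pgm1 from 0.04 to 0.34. The cause was not tested.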
